A study of Homo sapiens with 24 samples.

Results

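The 10 genes described here encode a writer of histone methylation, Polycomb repressive complex 2 (PRC2), and the enzymes that place, maintain or remove DNA methylation. PRC2 was represented by EZH1, EZH2, EED, SUZ12 and JARID2, and DNA methylation by DNMT1, DNMT3A, DNMT3B, UHRF1 and TET1. They were chosen by name, as the non-control probes carrying these gene names, and not by their values. The array held 15 such probes for the 10 genes, of 34127 probes and 27263 gene names in all. Of these 15 probes, 13 were bright enough to test, with at least 1 for every gene.

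RNA was measured in HCT-116, a human colorectal cancer cell line in which the Wnt pathway is constitutively active. All 4 groups were grown from a stably transfected line that was 1 clone and carried a Tet repressor together with a doxycycline-inducible dominant negative Tcf4 (DN-Tcf4), which blocks Wnt-dependent transcription. Ctl cells, titled untreated and labelled as mock-treated, received neither agent, NaB cells received 5 mM sodium butyrate for 17.5 hr, Doxy cells received 4 μg/ml doxycycline, and DoxyNaB cells received doxycycline followed by cotreatment with 5 mM butyrate. Butyrate is a short-chain fatty acid made from dietary fibre by gut bacteria, and it inhibits histone deacetylases. Each treatment was carried out in 6 experiments, giving 24 single-colour arrays. The comparisons addressed how butyrate altered these RNAs, and whether that response differed when DN-Tcf4 was induced.

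PRC2 methylates H3K27, a mark of silenced genes. EZH2 and EZH1 are its alternative catalytic subunits, EED and SUZ12 form the core that the catalytic subunit requires, and JARID2 is an accessory protein that helps to bring the complex to its sites. DNMT1 copies methylation onto newly replicated DNA, to which UHRF1 guides it, while DNMT3A and DNMT3B methylate new sites and TET1 oxidises 5-methylcytosine on the way to its removal. EZH2, DNMT1 and UHRF1 are known for high expression in proliferating and tumour cells, including those of the colon.

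The promoter sequences of 4 members are shown, those of UHRF1 and JARID2 because their RNA fell and rose most under butyrate, and those of EZH2 and SUZ12 because they stand for the PRC2 core and differ in the motifs they hold. They are the 250 bases before the RefSeq transcription start (GRCh38.p14), written in the direction of the gene. Capitals mark matches on either strand to the E2F motif (TTTGGCGC, TTTCCCGC, TTTGCCGC or TTTCGCGC) and to the CCAAT box, which may overlap other motifs. For UHRF1 the start used was not at the outer edge of the gene.
UHRF1 promoter, chr19:4909251-4909500 (+ strand): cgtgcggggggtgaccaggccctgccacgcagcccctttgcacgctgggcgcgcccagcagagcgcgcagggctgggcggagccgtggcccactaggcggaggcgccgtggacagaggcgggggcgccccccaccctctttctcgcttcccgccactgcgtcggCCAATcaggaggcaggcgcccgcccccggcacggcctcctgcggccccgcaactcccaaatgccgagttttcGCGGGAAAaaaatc
EZH2 promoter, chr7:148884292-148884541 (- strand): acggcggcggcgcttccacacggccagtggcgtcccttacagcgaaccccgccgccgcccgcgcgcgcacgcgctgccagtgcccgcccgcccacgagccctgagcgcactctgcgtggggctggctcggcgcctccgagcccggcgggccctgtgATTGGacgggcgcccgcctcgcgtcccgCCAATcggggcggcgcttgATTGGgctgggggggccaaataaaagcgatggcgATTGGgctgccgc
SUZ12 promoter, chr17:31936757-31937006 (+ strand): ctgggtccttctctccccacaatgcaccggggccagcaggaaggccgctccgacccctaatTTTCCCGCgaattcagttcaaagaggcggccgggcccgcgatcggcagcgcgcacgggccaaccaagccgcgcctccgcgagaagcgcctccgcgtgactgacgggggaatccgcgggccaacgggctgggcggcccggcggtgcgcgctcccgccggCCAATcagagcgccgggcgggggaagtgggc
JARID2 promoter, chr6:15245819-15246068 (+ strand): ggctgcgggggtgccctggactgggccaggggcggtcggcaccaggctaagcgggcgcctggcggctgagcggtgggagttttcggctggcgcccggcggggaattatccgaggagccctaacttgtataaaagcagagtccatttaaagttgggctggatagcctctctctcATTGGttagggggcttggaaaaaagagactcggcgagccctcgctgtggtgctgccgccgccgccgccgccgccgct
The UHRF1 and SUZ12 windows each held 1 E2F match and 1 CCAAT match. The EZH2 window held no E2F match and 4 CCAAT matches, and the JARID2 window held 1 CCAAT match. Over the members, 3 of 10 windows held an E2F match (EZH1, SUZ12 and UHRF1), compared with 2.79% of 35116 windows of the same length. A CCAAT box was present in 6 of 10 windows, compared with 32% of all windows, and a GC box (GGGCGG) in 5 of 10, compared with 42.6%. The windows differed widely in CpG content, from 3 CpGs in DNMT3B, whose start also lay inside the gene, to 38 in EZH2, against a median of 11. A match of letters is a description and shows no binding.

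Levels are given on a log2 scale as the ratio of a probe's processed signal to the 75th percentile of its array, so that a level of 0 lies at that percentile, and a change of 1 is a doubling. Levels are compared only between treatments for the same probe. The 75th percentile lay between 380.2 and 1323 signal units. Within a treatment, pairs of arrays correlated with r between 0.885 and 0.993 over probes. Scan 3, which held experiments 2 to 4, had more spots well above background (78.4% to 88.1%, against 52.7% to 62.6% on the other arrays) and higher negative controls in its butyrate arrays (69.1 to 248.9 signal units, against 63.1 to 79.6 on its other arrays and 48.4 to 64.3 elsewhere). Scans are numbered by scan date. In experiment 1 the butyrate arrays were on a different slide and in a different scan (scan 2) from its other arrays (scan 1). The effects of slide and scan cannot be told apart from that of butyrate in that experiment. As a check of induction, the Wnt target AXIN2 fell by 2.53 with doxycycline in the presence of butyrate (adjusted p = 2.64e-11), and the probe A_23_P389588 for TCF7L2, the gene of Tcf4, rose by 2.96 (adjusted p = 3.65e-05). With doxycycline alone AXIN2 fell by 0.58 (adjusted p = 0.0029), with a TCF7L2 difference of -0.17 (adjusted p = 0.921). Of 9 epithelial markers 8 were measurable. Of 9 markers of blood, stromal, endothelial and liver cells 3 were measurable, among them COL1A1 and VWF. Of those not measurable, COL3A1 was well above background on 0 of 24 arrays and the others, by their best probe, on 10 to 15. The 3 measurable markers rose with butyrate. The summed level of the 9 was 38.0% to 97.8% of the 75th percentile in Ctl and 110% to 254% in NaB. For the 9 epithelial markers it was 21322% to 30406% in Ctl. The part of these markers in the results below was not tested. In RNA from whole cultures, fewer cells of a type and less RNA per cell cannot be told apart.

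**Figure D1:**
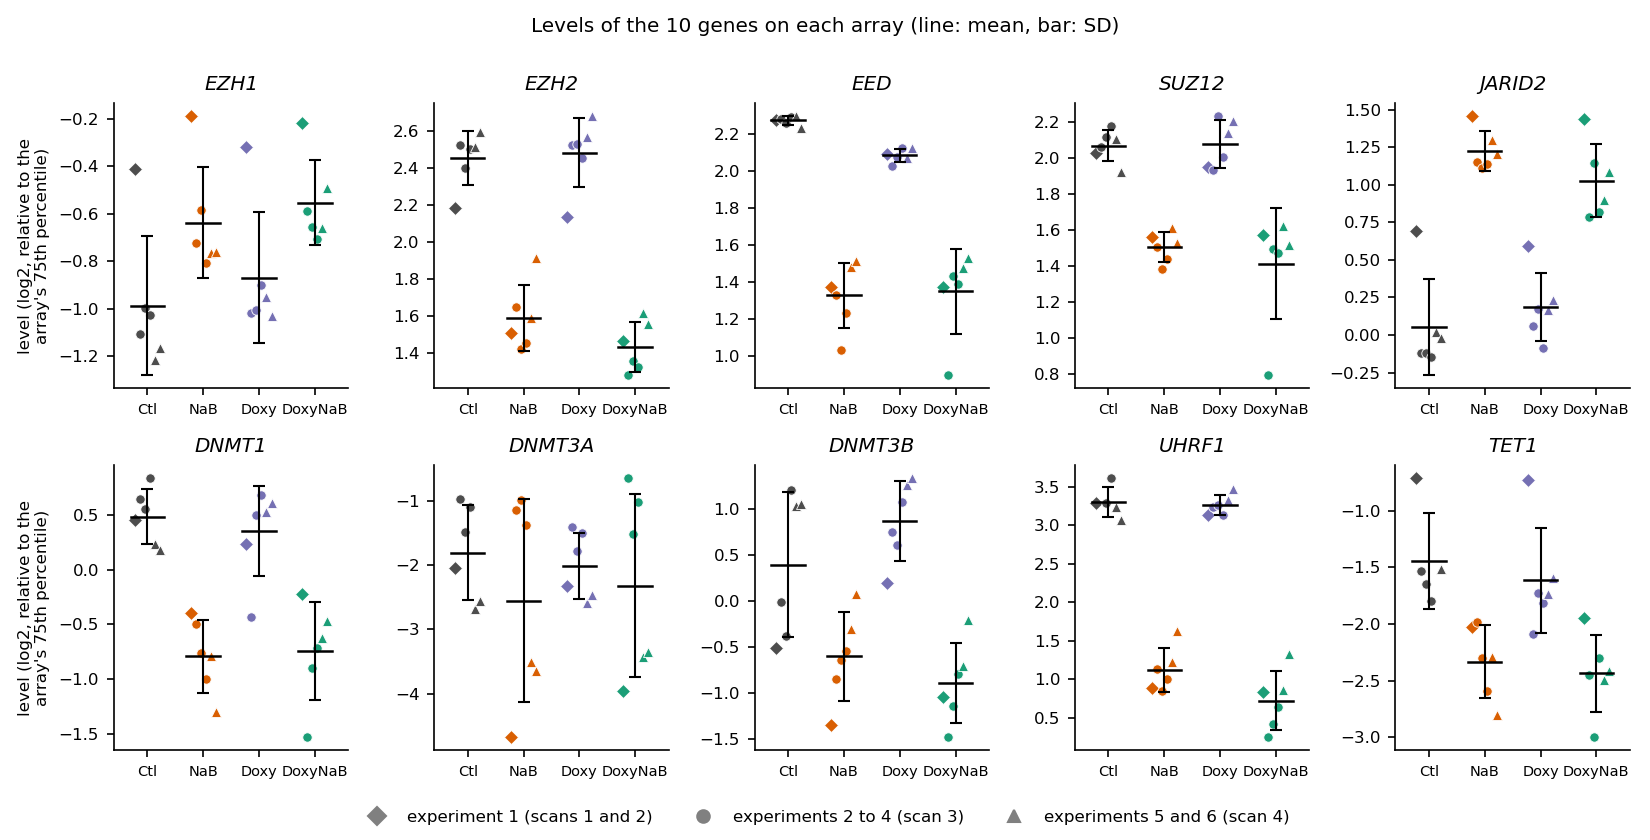
Level of each of the 10 genes (log2 ratio of the signal to the array's 75th percentile) in the 4 treatments. Each point is 1 array (n = 6 per treatment, or 5 where a spot was removed) its shape shows the scan, lines are means and bars are SD. The mean with butyrate lies below that of its control for 8 genes, with UHRF1 the furthest, and above it for JARID2 and EZH1, and each panel has its own level axis.

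Butyrate alone lowered most of these RNAs. By limma, with a fold above 2 and an adjusted p under 0.01, UHRF1 and DNMT1 fell and JARID2 rose. That is 2 of 10 lower, where 11% of all tested probes were lower, and 1 of 10 higher, where 20.7% were higher. By the adjusted p alone, 7 of 10 fell (28.2% of all probes) and 2 of 10 rose (40%), the latter being JARID2 and EZH1. The 7 that fell were EZH2, EED, SUZ12, DNMT1, DNMT3B, UHRF1 and TET1. The median change of the 10 genes was -0.87, while the median over all 18983 tested probes was 0.17. The 6 NaB arrays lay entirely below the Ctl arrays for 6 genes (18.9% of all probes) and entirely above for 1, JARID2 (24.2%).

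In cells treated with doxycycline, butyrate lowered the same 7 genes and raised the same 2, EZH1 and JARID2, by the adjusted p alone (29.7% of all probes lower and 37.3% higher). With the fold added, UHRF1, DNMT3B, DNMT1 and EZH2 fell, which is 4 of 10 where 12.3% of all probes were lower, and 0 of 10 rose, where 18.3% were higher. JARID2, at 1.79-fold higher, lay under the fold limit there. The median change of the 10 genes was -0.78, compared with 0.10 over all probes. The groups were fully separated for 5 genes in the downward direction (19.9% of all probes) and for 1 in the upward direction (21.6%). The comparison in doxycycline-treated cells used other arrays than the comparison of NaB with Ctl, so the pair of comparisons shared no arrays, although the arrays came from the same 6 experiments.

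**Figure D2:**
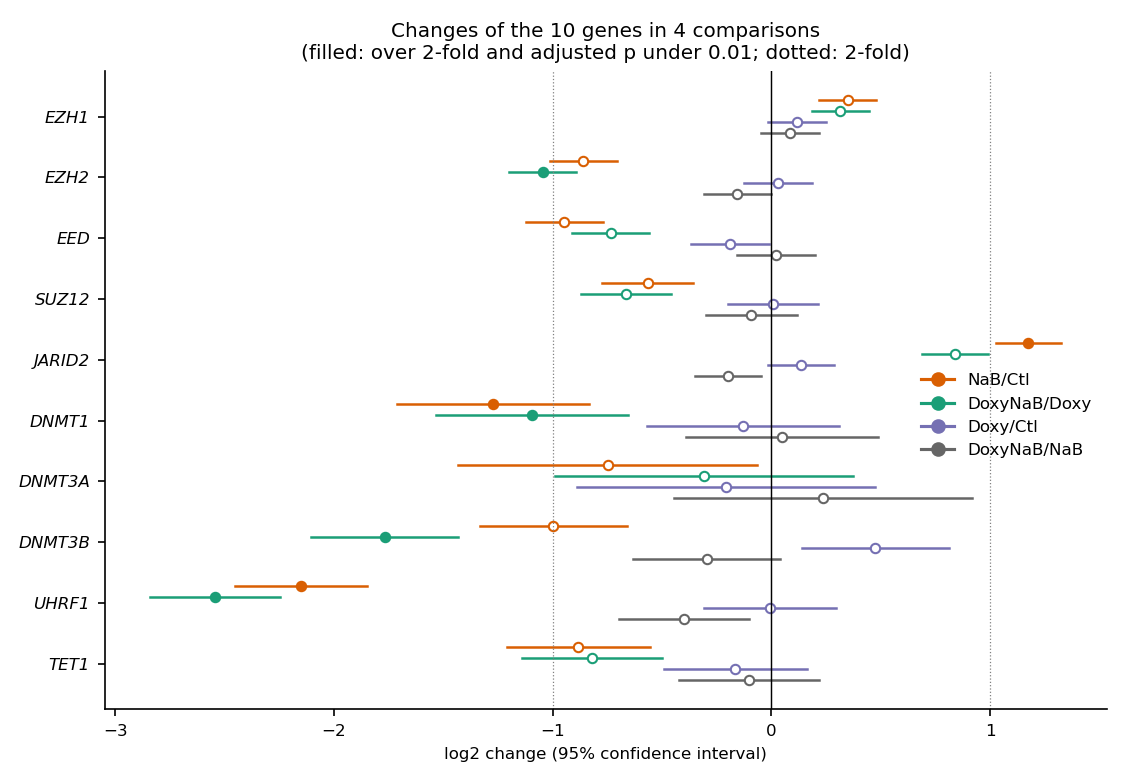
Log2 change of each gene for butyrate alone (NaB/Ctl), butyrate with doxycycline (DoxyNaB/Doxy), doxycycline alone (Doxy/Ctl) and doxycycline in butyrate (DoxyNaB/NaB). Points are limma estimates, filled where past fold and adjusted p, bars are 95% confidence intervals and dotted lines mark a 2-fold change. The butyrate changes run from -2.54 to 1.18, while those of doxycycline lie between -0.40 and 0.48.

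Among the PRC2 genes the catalytic subunits went opposite ways. EZH2, the main catalytic subunit of dividing cells, was measured by the probe at chr7:148135438-148135497 (NCBI36, - strand). Its level ran from 2.18 to 2.59 in Ctl (median 2.51) and from 1.43 to 1.91 in NaB (median 1.55). In Doxy it ran from 2.13 to 2.68 (median 2.53) and in DoxyNaB from 1.28 to 1.62 (median 1.41). Every butyrate array was below every array without butyrate, and the lowest arrays without butyrate, Ctl 1 and Doxy 1, both came from experiment 1. EZH2 fell by 0.86 ± 0.07 (SE, n = 6) in NaB against Ctl, or 1.81-fold (limma adjusted p = 5.71e-09). In DoxyNaB against Doxy it fell by 1.05 ± 0.07, or 2.06-fold (adjusted p = 3.85e-10), which put it past the fold limit there. The difference between these changes was 0.19 (adjusted p = 0.514), with a 95% interval from -0.03 to 0.40. In order of mean level, Doxy and Ctl were highest and were not separated by the test (adjusted p = 0.937). NaB and DoxyNaB followed, with a difference of -0.16 (adjusted p = 0.319).

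EZH1, the catalytic subunit that is also found in resting cells, had its probe at chr17:38106200-38106259 (- strand). Its level lay between -1.21 and -0.41 in Ctl (median -1.07) and between -0.81 and -0.19 in NaB (median -0.74). The Doxy arrays lay between -1.03 and -0.32 (median -0.98) and the DoxyNaB arrays between -0.71 and -0.22 (median -0.62). The highest array of every treatment came from experiment 1, and the groups overlapped through those arrays. Within experiments EZH1 was nonetheless higher with butyrate in 6 of 6, by 0.35 ± 0.06 or 1.27-fold (adjusted p = 6.47e-05), and in 6 of 6 with doxycycline, by 0.32 ± 0.06 (adjusted p = 0.000182). Without the pairing by experiment the rise missed the threshold (adjusted p = 0.0386 and 0.0606). It also missed the threshold with normexp (0.23, adjusted p = 0.104, and 0.34, adjusted p = 0.0145) and with quantile normalization (0.12, adjusted p = 0.187, and 0.10, adjusted p = 0.272). Scaling by the array median turned it to -0.40 (adjusted p = 0.0635) and -0.24 (adjusted p = 0.265), a setting in which the median of all probes lay at -0.58 and -0.46. Relative to the median of all probes, EZH1 was 0.16 to 0.22 higher with butyrate alone and 0.14 to 0.22 higher with doxycycline present under all 5 scalings compared. The order of means was DoxyNaB, NaB, Doxy and Ctl, and the test separated neither DoxyNaB from NaB (adjusted p = 0.599) nor Doxy from Ctl (adjusted p = 0.471).

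EED, which binds methylated H3K27 and stimulates the enzyme, was read by the probe at chr11:85667277-85667336 (+ strand). In Ctl it was tightly grouped, from 2.23 to 2.30 (median 2.28), and in NaB it ran from 1.03 to 1.52 (median 1.35). In Doxy it ran from 2.03 to 2.12 (median 2.08) and in DoxyNaB from 0.90 to 1.53 (median 1.41). The butyrate arrays were all lower, and DoxyNaB 2 stood below the other 5 of its group. EED fell by 0.95 ± 0.08, or 1.93-fold, with butyrate alone (adjusted p = 1.04e-08) and by 0.73 ± 0.08 in doxycycline-treated cells (adjusted p = 3.15e-07). The levels of Doxy were below those of Ctl in 6 of 6 experiments with no overlap, where 0.279% of all probes separated in that direction. That difference of -0.19 ± 0.08 did not pass the correction over all probes (unadjusted p = 0.0383, adjusted p = 0.353). In order of mean level Ctl was followed by Doxy, and DoxyNaB and NaB came last and were not separated (adjusted p = 0.947).

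SUZ12, the core subunit that holds the complex together, was spotted 10 times, with its probe at chr17:27349869-27349928 (+ strand). Its level was 1.92 to 2.17 in Ctl (median 2.08), 1.38 to 1.61 in NaB (median 1.51), 1.93 to 2.23 in Doxy (median 2.07) and 0.79 to 1.62 in DoxyNaB (median 1.51). No butyrate array reached the arrays without butyrate. The lowest value of all was DoxyNaB 2, while the other DoxyNaB arrays were between 1.47 and 1.62. SUZ12 fell by 0.57 ± 0.10, or 1.48-fold, with butyrate alone (adjusted p = 4.61e-05). It fell by 0.66 ± 0.10, or 1.59-fold, with doxycycline present (adjusted p = 7.47e-06). In order of mean level Doxy and Ctl (difference 0.01, adjusted p = 0.987) preceded NaB and DoxyNaB (-0.09, adjusted p = 0.752), neither pair being separated by the test.

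JARID2, the accessory subunit, was the member that rose most, with its probe at chr6:15629784-15629843 (+ strand). Its level was -0.14 to 0.69 in Ctl (median -0.07) and 1.11 to 1.46 in NaB (median 1.18). In Doxy it was -0.08 to 0.59 (median 0.17) and in DoxyNaB 0.79 to 1.44 (median 0.99). Experiment 1 gave the highest array of each of the 4 groups, yet no group with butyrate overlapped its control. JARID2 rose by 1.18 ± 0.07, or 2.26-fold, with butyrate alone (adjusted p = 5.47e-11) and by 0.84 ± 0.07, or 1.79-fold, in doxycycline-treated cells (adjusted p = 5.77e-09). The first change exceeded the second by 0.34 ± 0.10, with an interval from 0.12 to 0.55 and the same sign in 5 of 6 experiments. After correction over all probes this difference did not pass (unadjusted p = 0.00394, adjusted p = 0.111). When the arrays were scaled by their median the rises were 0.43 (adjusted p = 0.0751) and 0.28 (adjusted p = 0.247), and relative to the median of all probes they were 1.00 to 1.30 and 0.41 to 0.97 over 5 scalings. NaB was highest, then DoxyNaB (difference of -0.20, adjusted p = 0.147), then Doxy and Ctl (0.14 apart, adjusted p = 0.457).

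Of the DNA methylation genes UHRF1 fell furthest. UHRF1 reads hemimethylated DNA behind the replication fork and was measured by a pair of probes, at chr19:4913065-4913124 and chr19:4911895-4911954 (+ strand). The first had no usable spot in Ctl 2. Its level was 3.07 to 3.62 in Ctl (median 3.29, n = 5), 0.85 to 1.63 in NaB (median 1.07), 3.13 to 3.47 in Doxy (median 3.25) and 0.24 to 1.33 in DoxyNaB (median 0.74). The butyrate groups lay well clear of the others, and experiment 6 was the highest of both butyrate groups. It fell by 2.15 ± 0.14 (4.44-fold, n = 5 pairs, adjusted p = 3.67e-10) with butyrate alone and fell by 2.54 ± 0.14 (5.83-fold, adjusted p = 3.27e-11) with doxycycline present, in a fit that leaves out Ctl 2. The other UHRF1 probe, measured on all 24 arrays, ran from 1.72 to 2.50 in Ctl, -1.08 to 0.42 in NaB, 1.67 to 2.36 in Doxy and -0.97 to -0.15 in DoxyNaB. It fell by 2.52 ± 0.09 (5.75-fold, adjusted p = 7.96e-14) and fell by 2.68 ± 0.09 (6.41-fold, adjusted p = 3.27e-14), so both probes gave the same direction with no overlap. Doxy and Ctl were next to each other in the order of levels (-0.01, adjusted p = 0.992). DoxyNaB lay below NaB in 5 of 5 experiments with all 4 arrays, and also in experiment 2 (0.24 against 1.14). The difference of -0.40 ± 0.14 did not pass the correction (unadjusted p = 0.0113, adjusted p = 0.137). The other probe gave -0.24 (adjusted p = 0.202).

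DNMT1, the maintenance methyltransferase, had 1 probe, at chr19:10105023-10105082 (- strand). Its level was 0.17 to 0.84 in Ctl (median 0.50) and -1.30 to -0.39 in NaB (median -0.78). In Doxy it was -0.43 to 0.68 (median 0.51) and in DoxyNaB -1.54 to -0.22 (median -0.67). NaB and Ctl were apart, whereas Doxy and DoxyNaB overlapped because Doxy 2 lay below the highest DoxyNaB array, DoxyNaB 1. DNMT1 fell by 1.27 ± 0.21, or 2.42-fold (adjusted p = 2.36e-05), and by 1.10 ± 0.21, or 2.14-fold, with doxycycline present (adjusted p = 0.000122). Both doxycycline arrays of experiment 2 were low, with differences of -1.08 between Doxy and Ctl and -1.04 between DoxyNaB and NaB. Over all 6 experiments Doxy and Ctl (-0.13, adjusted p = 0.884) and DoxyNaB and NaB (0.05, adjusted p = 0.957) were not separated by the test.

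DNMT3B, a methyltransferase of new sites that is often overexpressed in tumours, was tested by the probe at chr20:30860725-30860784 (+ strand). Its level was -0.51 to 1.21 in Ctl (median 0.51) and -1.35 to 0.08 in NaB (median -0.59). In Doxy it was 0.19 to 1.34 (median 0.91) and in DoxyNaB -1.49 to -0.21 (median -0.92). The Ctl arrays fell into a low set, experiments 1 to 3 at -0.51, -0.02 and -0.38, and a high set, experiments 4 to 6 at 1.21, 1.03 and 1.05, and the low set overlapped NaB. DoxyNaB lay wholly below Doxy. DNMT3B fell by 1.00 ± 0.16 with butyrate alone (adjusted p = 1.85e-05), just under the 2-fold limit, and by 1.77 ± 0.16, or 3.41-fold, in doxycycline-treated cells (adjusted p = 1.3e-08). The fall was smaller without doxycycline in 6 of 6 experiments, by 0.77 ± 0.23 with an interval from 0.30 to 1.25, and this did not pass the correction over all probes (unadjusted p = 0.00323, adjusted p = 0.0994). Doxy was above Ctl by 0.48 ± 0.16 in 5 of 6 experiments (unadjusted p = 0.00831, adjusted p = 0.183) and DoxyNaB differed from NaB by -0.30 (adjusted p = 0.413). The other DNMT3B probe was well above background on only 14 of 24 arrays and was not tested. Its mean was higher with butyrate alone, at -3.67 in NaB and -5.06 in Ctl, opposite to the tested probe. These differences ran from -0.85 to 3.68 over the experiments. With doxycycline its means were -4.49 in DoxyNaB and -4.57 in Doxy.

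DNMT3A, the related methyltransferase, gave no butyrate change that passed the threshold. Its brightest probe, at chr2:25309919-25309978 (- strand), ran from -2.69 to -0.97 in Ctl (median -1.76) and from -4.68 to -0.98 in NaB (median -2.44). In Doxy it ran from -2.59 to -1.41 (median -2.05) and in DoxyNaB from -3.95 to -0.64 (median -2.44). The groups overlapped, and the arrays of scan 3 (experiments 2 to 4) were the 3 highest of every treatment. The difference was -0.75 ± 0.32 for butyrate alone (adjusted p = 0.0441) and -0.31 ± 0.32 with doxycycline (adjusted p = 0.4), with an interval from -0.99 to 0.37. For butyrate alone experiment 1 gave -2.64 and the other experiments -1.08 to 0.50. With the slide as a block in place of the experiment that difference was -0.43 (adjusted p = 0.102). Within scan 3 the differences were 0.01 (adjusted p = 0.947) and 0.50 (adjusted p = 0.0416). Within scan 4 (experiments 5 and 6) DNMT3A fell by 0.95 (adjusted p = 0.00065) and 0.86 (adjusted p = 0.000957), and the difference between scans was not tested. With butyrate alone the difference passed under quantile normalization (-1.04, adjusted p = 0.000772) and median scaling (-1.50, adjusted p = 1.91e-05), and with doxycycline present it passed under median scaling (-0.87, adjusted p = 0.00511). The arrays with the highest negative controls were butyrate arrays of scan 3, and the part of that background in these values was not tested. The other DNMT3A probes gave -0.62 (adjusted p = 0.172) and -0.13 (adjusted p = 0.74) with butyrate alone, the former being well above background on 17 of 24 arrays.

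**Figure D3:**
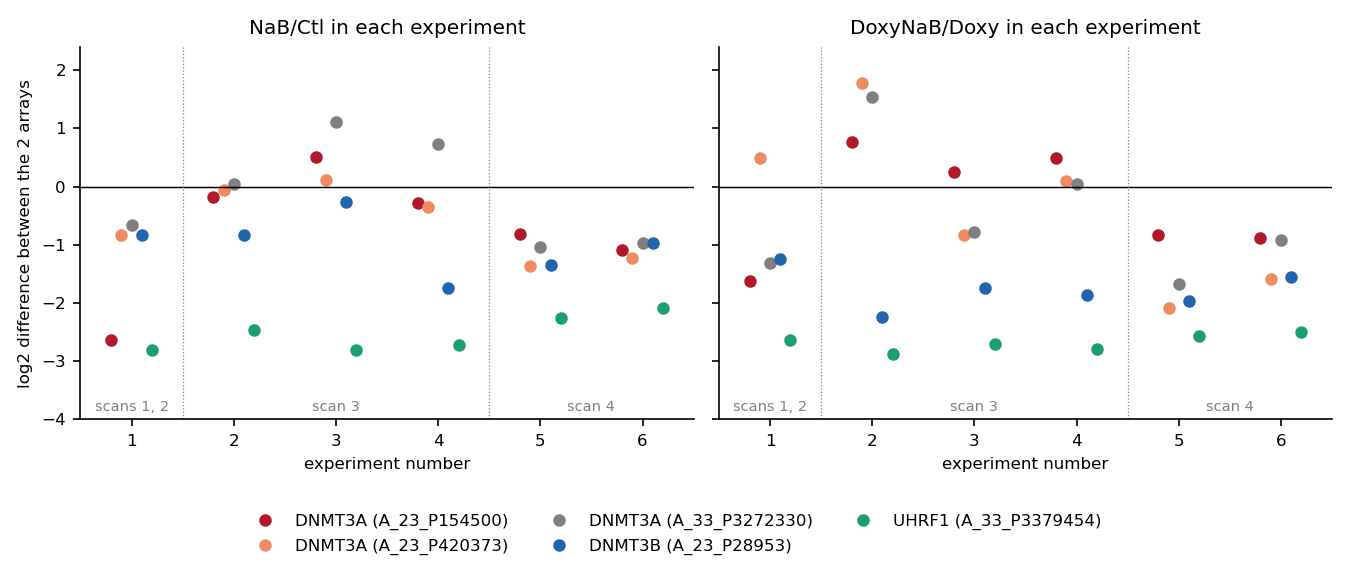
Log2 difference between the butyrate array and its control in each of the 6 experiments, for the 3 DNMT3A probes, the tested DNMT3B probe and the UHRF1 probe measured on all 24 arrays, in NaB/Ctl and DoxyNaB/Doxy, with dotted lines between scans. The DNMT3A probes lie on both sides of 0 in scan 3 and below 0 in scan 4, while DNMT3B and UHRF1 lie below 0 in every experiment.

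TET1, the dioxygenase that starts demethylation, was tested by the probe at chr10:70002078-70002137 (+ strand), which had no usable spot in Ctl 5. Its level was -1.79 to -0.71 in Ctl (median -1.54, n = 5), -2.80 to -1.98 in NaB (median -2.30), -2.09 to -0.73 in Doxy (median -1.73) and -3.00 to -1.95 in DoxyNaB (median -2.43). The Ctl and NaB arrays were apart, Doxy and DoxyNaB overlapped, and experiment 1 gave the highest array of Ctl, Doxy and DoxyNaB. TET1 fell by 0.88 ± 0.15, or 1.84-fold (adjusted p = 5.93e-05), and by 0.82 ± 0.15, or 1.76-fold, with doxycycline (adjusted p = 0.000111). With the normexp background correction the latter was -0.23 (adjusted p = 0.268). With quantile normalization the changes were -1.89 (adjusted p = 0.000295) and -1.59 (adjusted p = 0.00114), past the fold in both comparisons. Another TET1 probe was well above background on 4 Ctl and 5 Doxy arrays and on 0 NaB and 0 DoxyNaB arrays. It was not tested, and its signal was at least 1.12-fold lower in DoxyNaB than in Doxy, while no fold could be set for NaB against Ctl. Doxy and Ctl (-0.16, adjusted p = 0.752) and DoxyNaB and NaB (-0.10, adjusted p = 0.835) were not separated by the test.

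Doxycycline did not move any member past the test. Against Ctl, 0 of 10 passed in Doxy by fold and adjusted p (0.0948% of all probes) or by the adjusted p alone (0.5%), while EED and DNMT3B had an unadjusted p under 0.05. In butyrate-treated cells, where DN-Tcf4 was induced, 0 of 10 passed (0.379% of all probes, and 2.49% by the adjusted p alone), and EZH2, JARID2 and UHRF1 had an unadjusted p under 0.05. The size of the butyrate change differed with doxycycline in 0 of 10 at an adjusted p under 0.01 (1.24% of all probes), JARID2 and DNMT3B having an unadjusted p under 0.05. A p that misses the threshold does not show equal levels, and these tests were made by limma with 6 experiments.

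The other genes of these pathways came from lists of known components. Of 8 further PRC2 genes, butyrate alone lowered 3 (11% of all probes) and raised 1 (20.7%) by fold and adjusted p (median -0.79). PHF19, which docks PRC2 on H3K36-methylated chromatin, fell by 2.71 ± 0.23 (adjusted p = 6.09e-09), and the histone-binding subunit RBBP4 fell by 1.32 (adjusted p = 3.21e-11). EPOP, another accessory subunit, fell by 1.00 (adjusted p = 2.77e-05). EZHIP, an inhibitor of EZH2, was well above background on 0 of 6 Ctl and 6 of 6 NaB arrays, so that NaB was at least 5.18-fold higher. It entered the test only through the NaB group, and its adjusted p (1.9e-08) and its count as raised rest on Ctl signals at background. With doxycycline present, 2 fell (12.3% of all probes) and 1 rose (18.3%), with a median of -0.73. PHF19 was at -2.76 (adjusted p = 4.93e-09) and RBBP4 at -1.32 (adjusted p = 3.16e-11). The 1 that rose was again EZHIP (2.90), which was well above background on 1 Doxy array, so this count too rests largely on signals at background.

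Of 25 genes of PRC1, which ubiquitinates histone H2A, 3 rose (20.7% of all probes) and 3 fell (11%) with butyrate alone, with a median of -0.07. Among those that rose, SCML1 rose by 1.89 (adjusted p = 1.5e-11) and RYBP, a subunit of the variant complexes, by 1.15 (adjusted p = 5.11e-10). PCGF6, PCGF2 and PCGF1, alternative partners of the RING ubiquitin ligases, fell by 1.81 (adjusted p = 2.57e-11), 1.08 (adjusted p = 0.000224) and 1.07 (adjusted p = 2.38e-10). With doxycycline present 3 rose (18.3% of all probes) and 6 fell (12.3%). Among those that fell were BCOR (-1.30, adjusted p = 1.58e-11) and the same 3 PCGF genes. BCOR was also the only gene of this list to differ between DoxyNaB and NaB by the adjusted p alone (-0.37, adjusted p = 0.00472, against 2.49% of all probes). Of 5 enzymes and cofactors that remove H3K27 methylation or H2A ubiquitin 0 passed the fold, and the median was -0.18. By the adjusted p alone 1 rose (BAP1, 0.30, against 40% of all probes) and 1 fell (ASXL1, -0.75, against 28.2%).

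Among 7 measurable genes listed with DNA methylation, CDCA7, the activator of the remodeller HELLS, fell by 2.57 with butyrate alone (adjusted p = 1.07e-13). It was the only one past the fold (11% of all probes lower and 20.7% higher). HELLS itself fell by 0.97 (adjusted p = 6.37e-09), while DMAP1 rose by 0.91 and TRDMT1 by 0.86. The median of the 7 was -0.47. By the adjusted p alone 2 of the 7 rose (40% of all probes) and 3 fell (28.2%). Of 8 measurable genes of demethylation 3 rose (40% of all probes) and 3 fell (28.2%) by the adjusted p alone. Past the fold as well, 2 rose (20.7% of all probes) and 0 fell (11%). These were GADD45B, a stress gene linked to demethylation (2.16, n = 5 pairs, adjusted p = 2.01e-10), and IDH1, a source of the TET cofactor 2-oxoglutarate (1.53, adjusted p = 3.21e-11). TET2 (-0.76, adjusted p = 2e-05) and the glycosylase TDG (-0.84, adjusted p = 5.11e-11) fell less than 2-fold. Of 6 measurable readers of methylated CpG 1 rose (20.7% of all probes) and 1 fell (11%) past the fold, while 4 did not pass it. MBD1 rose by 1.56 (adjusted p = 6.24e-12) and ZBTB4 fell by 1.04 (adjusted p = 2.37e-06).

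S phase and proliferation genes fell broadly, 12 of 16 with butyrate alone (11% of all probes, median -1.82). With doxycycline present 13 of 16 fell (12.3% of all probes, median -1.77). TYMS, the thymidylate synthase, fell by 3.36 (adjusted p = 2.83e-07), the transcription factor E2F2 fell by 2.73 (adjusted p = 2.72e-15) and CCNA2, the S phase cyclin, fell by 2.62 (adjusted p = 1.14e-13). The part of this fall in that of the members was not tested. Of 14 genes known to be silenced by promoter methylation in colorectal cancer cells 2 were measurable, and both were well above background on 6 of 6 Ctl arrays. Both rose with butyrate alone (20.7% of all probes higher), TIMP3 by 4.33 (adjusted p = 3.22e-15) and NDRG4 by 3.44 (adjusted p = 7.83e-16). The other genes of the list were too dim to test, with butyrate as without it. DNA methylation was not measured.

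**Figure D4:**
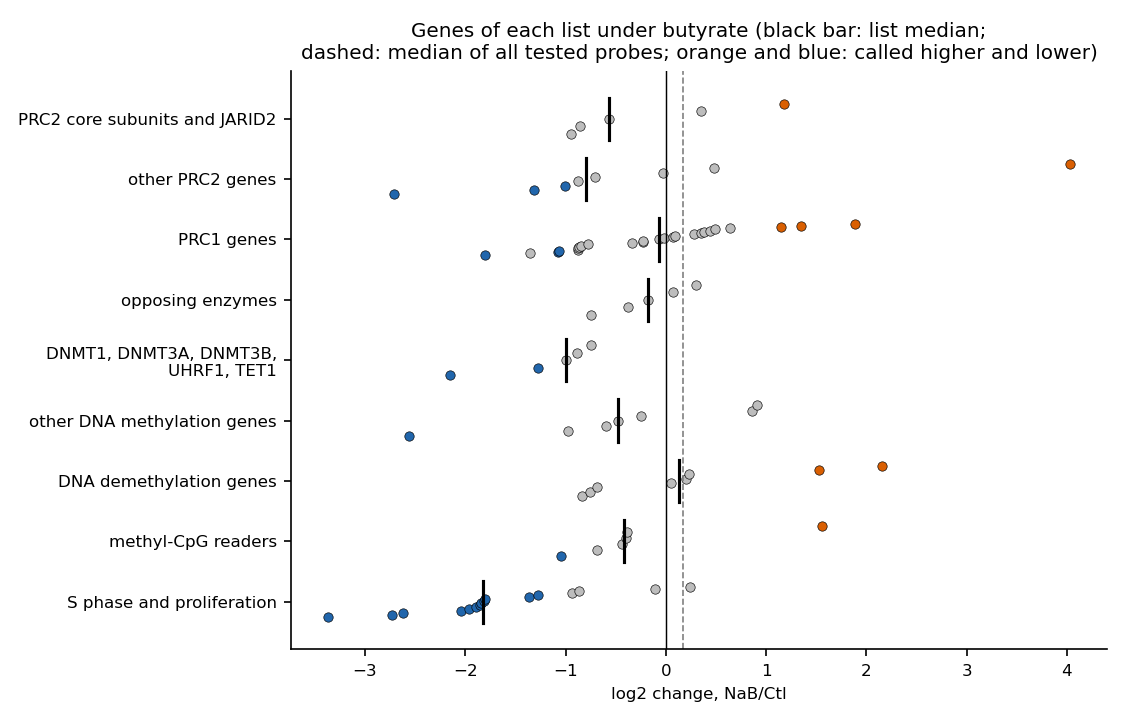
Log2 change with butyrate alone (NaB/Ctl) of the members and of each measurable gene in the lists of related genes, 1 point per gene, with the median of each list as a black bar and the median of all probes (0.17) dashed. Orange and blue points are higher and lower past fold and adjusted p. The S phase list has its median at -1.82, the other PRC2 genes at -0.79 and the PRC1 genes at -0.07. EZHIP is plotted at its measured difference, although its Ctl arrays were not well above background.

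Likeness was measured by the correlation of levels after each experiment was centred. The members most alike over the arrays were EZH2 and UHRF1 (Pearson r = 0.976 over 23 arrays) and EZH2 and SUZ12 (r = 0.954 over 24), while JARID2 ran opposite to EZH2 (r = -0.937). EZH1 and JARID2 correlated at 0.852, and DNMT3A at -0.44 to 0.64 with every other member. These values describe arrays that share treatments and experiments, and many genes had them. Of 14653 genes measured throughout, 3122 correlated with JARID2 above 0.9, 2625 with EZH2 and 2615 with UHRF1, but 142 with TET1 and 0 with DNMT3A. The genes most like EZH2 were RFC3 and KPNA3 (both r = 0.992) and those most like UHRF1 were GINS1 and RFC4 (both r = 0.988). WDR5 and METTL16 were closest to EED (both r = 0.990), and RSF1 (0.983) and NLN (0.980) to SUZ12. JARID2 was followed most closely by SMIM29 (0.988) and SLC2A8 (0.986), EZH1 by PIGQ (0.972) and PGPEP1 (0.959). For DNMT1 they were FAM120A (0.952) and UTRN (0.950), for DNMT3B WDR43 (0.972) and DUS4L (0.958), for TET1 ZNF462 (0.945) and DOCK5 (0.941), and for DNMT3A BAHCC1 (0.890) and ERAP2 (0.889).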

How the data were processed

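The deposited files hold spot intensities, which the authors obtained with Agilent Feature Extraction 9.5.3.1 (background subtracted and detrended within each array, not scaled between arrays). Probe positions are on NCBI36 per the file headers. Control and outlier-flagged spots were removed, replicate spots averaged, and log2 levels taken relative to the 75th percentile of the array's non-control spots. Probes entered the test if at least 1 treatment had all 6 arrays well above background (18983 probes, 15162 genes), and a gene was represented by its brightest tested probe. Treatments were compared with limma 3.58.1 in R 4.3.3, over 24 arrays, with the experiment as a block and Benjamini-Hochberg adjustment over all probes. The study states that the 6 experiments are biological replicates. Arrays of the same experiment deviated together in 35 of 36 treatment pairs (r = 0.218 to 0.851, and -0.22 in the remaining pair, NaB 3 with DoxyNaB 3). Signal over background and the number of arrays set the precision. List genes named are up to 3 with the highest and up to 3 with the lowest change among those past both thresholds in NaB/Ctl. BCOR, BAP1, ASXL1, HELLS, DMAP1, TRDMT1, TET2 and TDG were named after their values were seen. Some genes that the rule names are not reported here. The closest genes are the 2 with the highest correlation. The members, lists and tests were chosen with earlier results of these data known. Promoters came from RefSeq (GRCh38.p14).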

Additional observations from a re-analysis of the deposited data

Results flagged for a closer look

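In 8 of 52 groups of member probes, 1 array lay far from the others of its group by Dixon's criterion, where chance gives about 1 in 20 groups. Of these, 6 were in experiment 1. EZH1 was highest in experiment 1 in Ctl (-0.41, others -1.21 to -0.998), in NaB (-0.19, others -0.81 to -0.58) and in Doxy (-0.32, others -1.03 to -0.90). JARID2 was highest there in Ctl (0.69, others -0.14 to 0.02). TET1 was highest there in Ctl (-0.71, others -1.79 to -1.51) and in Doxy (-0.73, others -2.09 to -1.59). The remaining 2 were in DoxyNaB of experiment 2, where EED was lowest (0.90, others 1.38 to 1.53) and SUZ12 was lowest (0.79, others 1.47 to 1.62). That array also had the highest negative controls of all 24, at 248.9 signal units. The part of slide, scan and background in these values was not tested.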

How the results depend on the processing

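The butyrate changes of the 10 members in both comparisons and 4 other differences (DNMT3B in Doxy/Ctl, UHRF1 in DoxyNaB/NaB and the interactions of JARID2 and DNMT3B), 24 results in all, were recomputed under 22 alternatives, giving 524 values, of which 490 kept direction and side of the threshold, 22 no longer passed, 6 newly passed and 6 changed sign. The sign changes were DNMT3A in DoxyNaB/Doxy with normexp (0.19), with the slide as a block (0.014) and in scan 3 alone (0.50), DNMT3A in NaB/Ctl in scan 3 alone (0.015), and EZH1 with median scaling (-0.40 in NaB/Ctl and -0.24 in DoxyNaB/Doxy). The number of members past fold and adjusted p in NaB/Ctl was 3 and became 6 with quantile normalization, 8 with median scaling, 7 with a fold limit of 1.5 and 5 with the percentile taken over probes. The number of members in DoxyNaB/Doxy was 4, all lower, and became 7 with median scaling (7 lower) and 8 with a fold limit of 1.5 (7 lower). It became 3 with normexp, where DNMT1 missed the fold (-0.89), and stayed at 4 with quantile normalization, where EZH2 missed it (-0.93) and TET1 passed. By p alone, the methods' t-test, unadjusted, gave 1 member in Doxy/Ctl (EED), which did not pass the fold. Leaving out each experiment in turn gave 3 to 4 in NaB/Ctl, 4 in DoxyNaB/Doxy, and 9 past the adjusted p in both. Without the experiment as a replicate block the counts stayed at 3 and 4, and 8 members passed the adjusted p in each comparison, EZH1 being lost. The block changed no other call of a member. The choice of scaling moved the share of higher calls over all probes in NaB/Ctl from 65.3% to 52.8% (normexp), 43.8% (quantile) and 21.1% (median scaling), and in DoxyNaB/Doxy from 59.9% to 42.9% (quantile) and 25.01% (median scaling). The median of all probes in NaB/Ctl lay at 0.17, 0.07, -0.09 and -0.58 in the same order. Relative to that median the members kept their signs in all 5 scalings. The scan-wise, percentile-over-probes and 2-array alternatives were chosen after seeing the data. When the 2 butyrate arrays with the brightest negative controls were removed, 4 and 3 members passed. Dim probes, those of DNMT3A above all, are limited by signal over background.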
